A study of Mus musculus with 10 samples.

Results

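Mature fat cells store triglyceride in a lipid droplet and secrete adipokines, and 10 genes known for that work were followed in cultured mouse adipose stem and precursor cells (ASPCs). The genes were chosen by symbol from the table of counts, in which all 10 of them are listed among 25229 rows. They are Lpl, Cd36 and Fabp4, which serve fatty acid release, uptake and transport, Dgat2, an enzyme of triglyceride synthesis, the droplet proteins Plin1, Plin2, Plin4 and Cidec, and the adipokines Adipoq and Lep. ASPCs were sorted as CD45-CD31-Pdgfra+ cells from the stromovascular fraction of perigonadal white adipose tissue (gWAT) of WT mice. They were grown until confluent with no passage, and then received either 100 nM FICZ, a ligand of the aryl hydrocarbon receptor (AHR), or DMSO, its vehicle, and were lysed 6 hr later. Bulk RNA sequencing gave 10 libraries, 5 with DMSO and 5 with FICZ, and each group is numbered 1 to 5. All the cells were of 1 genotype and 1 sort gate, no library is of differentiated adipocytes, and the age of the mice is not given in the sources used here. Nothing in the labels says that the libraries of a group came from separate mice or cultures, so p-values measure the spread between these libraries, which may be technical.

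Precursor cells become adipocytes under the control of the nuclear receptor PPARγ and C/EBP factors, and genes such as Adipoq, Plin1 and Cidec are switched on late in that process. Lpl, Cd36 and Plin2 are used more widely: Lpl is already made by cells committed to the fat lineage, and Plin2 coats droplets in most cell types. Several of the genes are also known in liver, where DGAT2 makes triglyceride and CIDEC and its relative CIDEB act on droplets of hepatocytes.

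Promoter sequences are shown for some of the genes on which the values below turn. They are the 250 bases before the RefSeq transcription start in GRCm38.p6, read 5′ to 3′ on the strand of the gene. RefSeq entries were at hand for 7 of the 10 genes, with 8 starts, and none was given for Fabp4, Lpl and Dgat2. Capitals mark 3 motifs looked for on both strands, which are GCGTG (the core of the AHR response element), AGGTCA (a nuclear receptor half-site) and TTGCNNAA (a C/EBP site). Adipoq is shown as the adipokine of the set that was detected, Lep as the gene with no count, Plin2 as the gene that was lower with FICZ in every pair, and Cidec at both of its starts because its level followed that of a liver transcript.
Adipoq: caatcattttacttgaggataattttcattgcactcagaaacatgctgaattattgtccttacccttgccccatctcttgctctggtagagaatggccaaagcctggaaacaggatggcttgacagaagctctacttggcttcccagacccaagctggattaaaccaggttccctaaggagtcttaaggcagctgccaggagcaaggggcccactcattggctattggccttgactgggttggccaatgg
Lep: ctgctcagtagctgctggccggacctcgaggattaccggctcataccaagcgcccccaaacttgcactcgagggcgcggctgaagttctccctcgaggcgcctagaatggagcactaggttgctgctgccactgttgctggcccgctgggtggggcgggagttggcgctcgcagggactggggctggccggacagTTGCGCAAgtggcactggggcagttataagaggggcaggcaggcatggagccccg
Plin2: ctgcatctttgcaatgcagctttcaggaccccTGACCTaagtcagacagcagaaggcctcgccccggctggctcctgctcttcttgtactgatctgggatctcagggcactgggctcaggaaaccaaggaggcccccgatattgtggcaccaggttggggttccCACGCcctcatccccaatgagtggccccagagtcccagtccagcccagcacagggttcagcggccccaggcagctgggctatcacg
Cidec start 1: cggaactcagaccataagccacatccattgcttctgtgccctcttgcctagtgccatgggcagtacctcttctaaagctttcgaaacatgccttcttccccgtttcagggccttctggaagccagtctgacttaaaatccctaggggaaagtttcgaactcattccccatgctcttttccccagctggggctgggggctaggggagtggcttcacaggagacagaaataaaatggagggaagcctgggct
Cidec start 2: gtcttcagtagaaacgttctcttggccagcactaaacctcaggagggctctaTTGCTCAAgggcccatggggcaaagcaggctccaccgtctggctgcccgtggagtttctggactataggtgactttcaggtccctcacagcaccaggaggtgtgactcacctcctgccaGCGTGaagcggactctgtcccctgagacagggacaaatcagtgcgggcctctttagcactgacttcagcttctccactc

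These windows lie at chr16:23146286-23146535 (plus strand) for Adipoq, chr6:29059971-29060220 (plus strand) for Lep and chr4:86670060-86670309 (minus strand) for Plin2. Those of Cidec lie at chr6:113435761-113436010 for start 1 and chr6:113434765-113435014 for start 2, both on the minus strand. The AHR core was found 86 bases before the start of Plin2 and 79 bases before start 2 of Cidec, and in 28.2% of the 32851 windows of the same length. In Plin2 it is on the other strand and reads CACGC. The half-site was found in Plin2, 218 bases before the start, where it reads TGACCT, and in 14.0% of all windows. The C/EBP motif was found 55 bases before the start of Lep and 198 bases before start 2 of Cidec, and in 9.56% of all windows. The window of Adipoq held none of the 3 motifs. No window of these genes held AGGTCANAGGTCA, the double half-site bound by PPARγ with RXR, which was found in 0.0335% of all windows, or TATAAA, which was found in 12.4%. A match is a description of letters and not of binding. The counts are summed per gene, so the starts of Cidec, a gene known for different first exons in fat and in liver, could not be told apart.

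The libraries held between 38328611 and 50210111 counts, at which a floor of 3 counts equals 0.0603 to 0.0787 CPM, the unit of level used here, in which counts are scaled by library size and TMM factor. The floor is taken as the detection limit and covers counting error only. The treatment check held in every library, since Cyp1a1, an AHR target, lay between 11.6 and 42.9 CPM with DMSO and between 144 and 355 CPM with FICZ. Markers of the sorted cells were high throughout, with 3094 to 4127 CPM summed over 7 ASPC markers in DMSO and 3138 to 3845 CPM in FICZ. Liver transcripts were counted in all libraries, and the sum of 8 hepatocyte markers ranged from 1505 to 8612 CPM in DMSO and from 1632 to 2192 CPM in FICZ. Alb, the albumin gene, stood at 1921, 713, 756, 1740 and 4782 CPM in DMSO replicates 1 to 5 and at 1085, 923, 1017, 682 and 942 CPM in FICZ replicates 1 to 5. DMSO replicate 5 thus stood apart, and values without it are given below beside the results that moved most when it was left out.

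The defining markers of mature adipocytes were low. Of 7 white adipocyte markers 6 were detected in all 10 libraries and Lep was at 0, and their summed level was 25.0 to 149 CPM in DMSO and 28.3 to 43.3 CPM in FICZ. Most of that sum in the library with the most was Pck1, which is also an enzyme of liver, at 126 CPM in DMSO replicate 5. Ucp1, the defining gene of brown adipocytes, was at 0 in 8 libraries and at 0.0252 and 0.0230 CPM in FICZ replicates 3 and 4, both under the detection limit. The other 2 brown adipocyte markers were detected in all 10 libraries, Cidea at 0.207 to 2.13 CPM and Elovl3 at 1.34 to 9.34 CPM. The 3 markers summed to 1.71 to 11.5 CPM in DMSO and 1.66 to 2.31 CPM in FICZ. Markers of other cells that the culture could hold were also low. Macrophage markers summed to 19.7 to 37.4 CPM over all libraries, Kupffer cell markers to 3.36 to 22.9 CPM, liver sinusoidal endothelial markers to 2.87 to 13.3 CPM and mesothelial markers to 2.60 to 4.90 CPM. The 4 endothelial markers summed to 64.2 to 86.6 CPM, of which Tek gave 52.9 to 76.7 CPM and Pecam1 no more than 1.62 CPM.

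Lpl, the lipase that frees fatty acids from lipoproteins, was the highest of the 10 genes per length of exon. It had 106 ± 17.9 CPM per kb in DMSO and 101 ± 13.9 CPM per kb in FICZ (SD, n = 5 libraries each, as for all such values). Plin2 came next, with 68.2 ± 5.08 and 63.7 ± 3.81 CPM per kb. Over the 10 libraries the lowest value of Lpl, 84.1 CPM per kb, was above the highest of Plin2, 71.1. The lowest of Plin2, 57.6, was above the highest of Fabp4, 17.8. Length here counts every base exonic in any annotated transcript, which for Fabp4 gives 4489 bases, the whole span of the gene. Levels per kb thus depend on this length, and that of Fabp4 may be too low. In CPM, with no length, these genes kept their order. Lpl had 882 to 1381 CPM, Plin2 202 to 250 and Fabp4 32.8 to 80.0. Fabp4, the fatty acid binding protein of adipocytes, followed with 12.7 ± 3.48 and 15.0 ± 1.87 CPM per kb. From Fabp4 down, each gene overlapped with its neighbour in the order. In DMSO, Dgat2 had 7.61 ± 4.76 CPM per kb, Cd36 had 5.80 ± 2.87, Adipoq had 2.82 ± 1.81, Plin4 had 2.08 ± 0.659, Plin1 had 1.50 ± 0.716 and Cidec had 1.20 ± 0.943. In FICZ, Cd36 at 4.97 ± 1.87 CPM per kb was just above Dgat2 at 4.79 ± 0.524, and the other genes kept their order down to Cidec at 0.479 ± 0.132. Lep, the adipokine of large mature fat cells, had 0 counts in all 10 libraries and was not tested. The other 9 genes passed the filter on low counts.

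**Figure D1:**
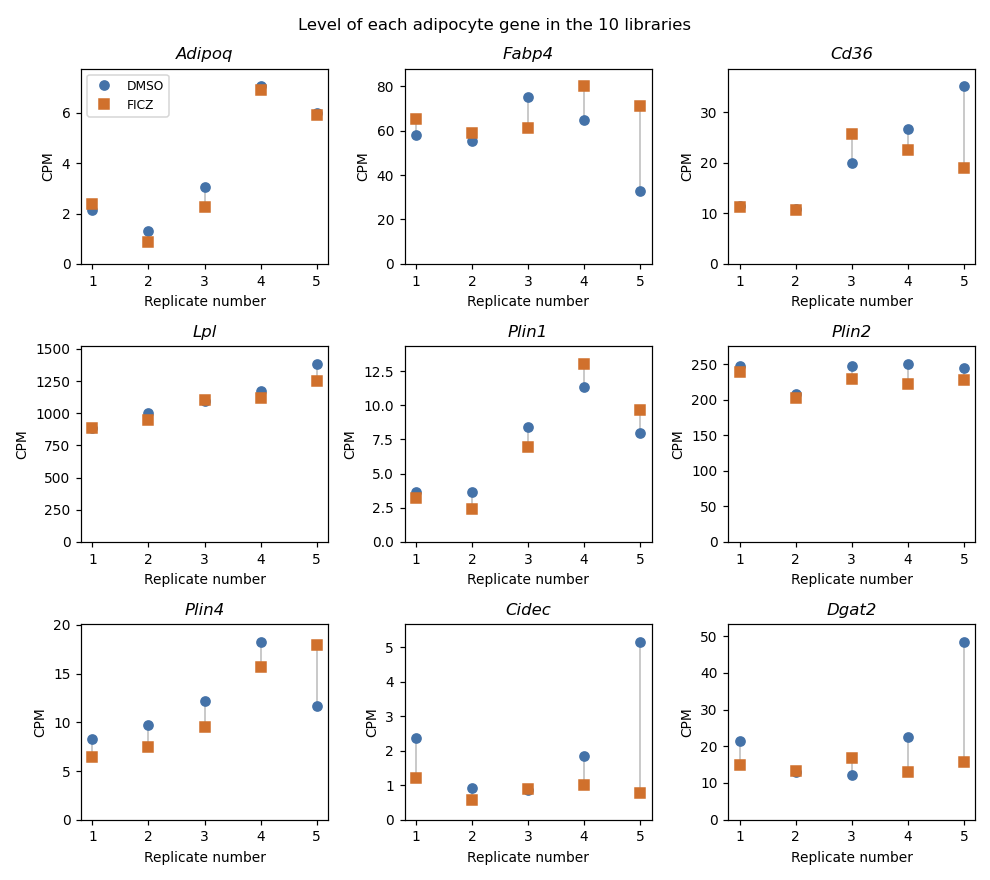
Level in CPM (linear axis from 0) of each of the 9 adipocyte genes that were tested, by replicate number, with DMSO as circles and FICZ as squares, and a grey line joining the libraries of 1 number. Adipoq and Plin1 were higher in both libraries numbered 4 and 5 than in those numbered 1 and 2, whereas Cidec and Dgat2 were highest in DMSO replicate 5 alone, at 5.15 and 48.3 CPM.

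The first question was whether FICZ altered these genes. No difference passed the test for any of the 9 genes. With edgeR's quasi-likelihood test 0 of 9 had an adjusted p at or under 0.05, beside 3 genes (0.0211%) of the 14251 tested, which were Cyp1a1, Ahrr and Tiparp. Blocking on replicate number, the count was again 0 of 9, beside 8 genes (0.0561%). DESeq2 called 0 of the 9 with or without the block. Before adjustment edgeR placed only Cidec at or under 0.05, at 0.0149 without the block, where 4.82% of all genes passed, and at 0.0262 with it, where 4.65% passed. Beside that background, 1 gene passing in 9 is not a result about these genes. The groups of log2 CPM overlapped for all 9 genes, whereas they did not overlap for 0.47% of all genes. By the exact two-sided permutation test, in which 5 against 5 libraries can give no p below 0.00794, p lay between 0.0794 for Cidec and 0.833 for Plin1. In bulk RNA, fewer cells of a type and less RNA per cell cannot be told apart.

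Cidec, a droplet protein that helps small droplets fuse into large ones, lies on chromosome 6 (113424634 to 113435760 of GRCm38, minus strand). It had 2.36, 0.924, 0.870, 1.84 and 5.15 CPM in DMSO replicates 1 to 5. With FICZ it had 1.22, 0.573, 0.883, 1.01 and 0.762 CPM. DMSO replicates 1, 4 and 5 were above every FICZ library, while DMSO replicates 2 and 3 lay within the range of the FICZ libraries. The log2 fold change of FICZ over DMSO was -1.33 (standard error 0.46, adjusted p = 0.999 in edgeR) and -1.07 with the block (standard error 0.38). Within pairs Cidec was lower with FICZ in 4 of 5, with differences of log2 CPM from -2.69 in pair 5 to 0.02 in pair 3. With log2 CPM of Alb as a covariate the log2 fold change was -0.34, and without DMSO replicate 5 it was -0.75.

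Dgat2, which adds the last fatty acid to diacylglycerol, lies on chromosome 7 (99153658 to 99182719, minus strand). It had 21.5, 13.0, 12.1, 22.5 and 48.3 CPM in DMSO and 14.8, 13.4, 16.9, 13.0 and 15.7 CPM in FICZ. The DMSO libraries that were high were again replicates 1, 4 and 5, and all FICZ libraries fell between the lowest and the third highest DMSO library. Its log2 fold change was -0.67 (standard error 0.33), and -0.49 (standard error 0.29) with the block, with an adjusted p of 0.999 and 0.929 in edgeR. It was lower with FICZ in 3 of 5 pairs. With Alb as a covariate the difference was 0.03, and without DMSO replicate 5 it was -0.22.

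Fabp4 was the one gene whose difference was in the other direction by more than its standard error. This gene of chromosome 3 (10204088 to 10208576, minus strand) had 58.0, 55.4, 75.1, 64.7 and 32.8 CPM in DMSO and 65.4, 59.1, 61.4, 80.0 and 71.2 CPM in FICZ. DMSO replicate 5 was the lowest library, and the other 9 ranged from 55.4 to 80.0 CPM in both groups. FICZ over DMSO was at 0.24 on the log2 scale, with a standard error of 0.18 and an adjusted p of 0.999 in edgeR. It was 0.09 without DMSO replicate 5, and 0.02 with Alb as a covariate.

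Plin2 (chromosome 4, 86648386 to 86670060, minus strand) was lower with FICZ by a small amount in every pair. It had 248, 208, 247, 250 and 245 CPM in DMSO and 238, 202, 229, 222 and 228 CPM in FICZ. It was lower with FICZ in 5 of 5 pairs, by 0.04 to 0.17 on the log2 scale, a pattern that 2.81% of all genes showed. The log2 fold change was -0.10 (standard error 0.08, and 0.06 with the block), with an adjusted p of 0.999 and 0.929 in edgeR. A test on 5 pairs cannot give an exact two-sided p below 0.0625. Of the 50-base words in its transcripts 2.57% also occur in those of other genes, of which Gm12551 shares the most. A small part of its reads may thus be shared. For Lpl and Plin1 the share of words found in other genes was 1.14% and 0.172%, for the other 7 genes it was 0, and 17 exonic bases of Plin4 overlap Hdgfl2 on the other strand.

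Cd36, the fatty acid translocase, and Lpl differed by less than their standard errors. Cd36 had 11.4, 10.9, 19.9, 26.7 and 35.1 CPM in DMSO and 11.2, 10.7, 25.7, 22.6 and 19.0 CPM in FICZ. The groups covered nearly the same range apart from DMSO replicate 5. Lpl had 882, 1005, 1092, 1175 and 1381 CPM in DMSO and 885, 948, 1102, 1120 and 1251 CPM in FICZ. Same-numbered libraries of Lpl were alike, with differences of log2 CPM within pairs from -0.14 to 0.01. The log2 fold changes were -0.23 for Cd36 (standard error 0.35) and -0.06 for Lpl (standard error 0.13, and 0.06 with the block). Without DMSO replicate 5 both changed sign, to 0.05 for Cd36 and 0.03 for Lpl.

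Adipoq, which encodes adiponectin, and Plin1 and Plin4, which coat the droplets of adipocytes, showed differences of at most 0.09 on the log2 scale without the block. The log2 fold change of Adipoq was -0.09 (standard error 0.57), that of Plin1 was 0.01 (standard error 0.47) and that of Plin4 was -0.07 (standard error 0.30). With the block these were -0.16 (standard error 0.14), -0.10 (standard error 0.15) and -0.14 (standard error 0.16). Block and Alb together gave -0.31 (standard error 0.16), -0.30 (standard error 0.12) and -0.36 (standard error 0.12), farther from 0 and not called. Without DMSO replicate 5 and with no block Adipoq was at 0.12. The standard error of Adipoq thus fell from 0.57 to 0.14 when libraries of 1 number were compared with each other.

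**Figure D2:**
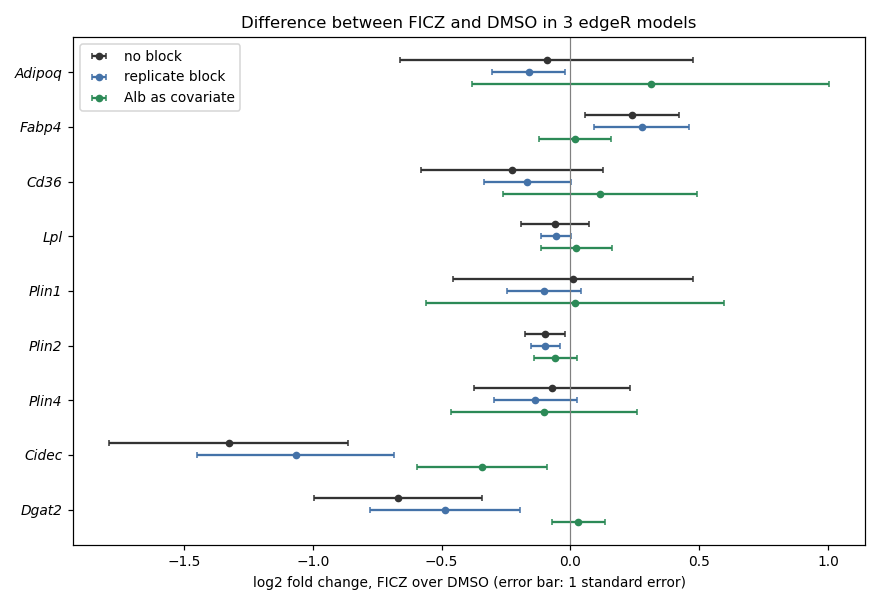
Log2 fold change of FICZ over DMSO for the 9 genes tested, in edgeR without a block, with the replicate block, and with log2 CPM of Alb as a covariate, with error bars of 1 standard error. Cidec and Dgat2 were at -1.33 and -0.67 without the block and at -0.34 and 0.03 with Alb in the model, and the error bars of Adipoq and Plin1 were shortest with the block.

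The second question was how each gene related to Alb across the 10 libraries. Cidec and Dgat2 rose with Alb and Fabp4 fell with it, while the other 6 genes did not pass the test. The slope is the change in log2 CPM of a gene for each unit of log2 CPM of Alb, with treatment in the model, so that a gene in a fixed ratio to Alb has a slope of 1. In edgeR 3 of 9 genes had an adjusted p at or under 0.05, beside 12.9% of the 14250 genes tested. A positive slope passed for 2 of the 9 and for 8.84% of all genes. For the hepatocyte markers other than Alb the slopes lay between 0.95 and 1.00, apart from Trf, which other cells also make, at 0.52.

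Cidec had a slope of 0.89 (standard error 0.14, adjusted p = 0.000958 in edgeR). Per 1000 counts of Alb there were 1.23, 1.30, 1.15, 1.06 and 1.08 counts of Cidec in DMSO replicates 1 to 5, and 1.12, 0.621, 0.868, 1.49 and 0.809 in FICZ. The highest of these ratios was 2.40 times the lowest, whereas the level of Alb itself spread from 682 to 4782 CPM. A straight line through the 10 libraries gave 1.09 CPM of Cidec per 1000 CPM of Alb and -0.03 CPM at an Alb of 0. Pearson's r of log2 CPM with Alb was 0.92 (permutation p = 0.00136, n = 10) and Spearman's rho was 0.66 (permutation p = 0.0437). Without DMSO replicates 5 and 1, the libraries farthest from the median of Alb, r was 0.63 (permutation p = 0.100, n = 8), so the relation rests on those libraries. Without DMSO replicate 5 the slope was 0.82 (adjusted p = 0.242 in edgeR), and no other single library ended its call.

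Dgat2 had a slope of 0.69 (standard error 0.06, adjusted p = 4.06e-06 in edgeR). Its ratio was 11.2, 18.2, 16.1, 12.9 and 10.1 counts per 1000 counts of Alb in DMSO and 13.7, 14.5, 16.6, 19.1 and 16.7 in FICZ. In contrast to Cidec, the ratio was lowest in the libraries with the most Alb, and the straight line gave 8.70 CPM per 1000 CPM of Alb and 6.45 CPM at an Alb of 0. Pearson's r was 0.98 (permutation p = 0.0001, n = 10) and Spearman's rho was 0.90 (permutation p = 0.00078). Without the libraries farthest from the median r was 0.93 (permutation p = 0.00298, n = 8). The slope passed the test without each library in turn, with values from 0.58 to 0.73.

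Fabp4 had a slope of -0.33 (standard error 0.09, adjusted p = 0.0328 in edgeR), and it rested on few libraries. Pearson's r was -0.82 (permutation p = 0.0149, n = 10) and Spearman's rho was -0.50 (permutation p = 0.144). Without DMSO replicates 5 and 1 r was -0.23 (permutation p = 0.603, n = 8). The slope was -0.13 without DMSO replicate 5 (adjusted p = 0.999 in edgeR) and -0.30 without DMSO replicate 3 (adjusted p = 0.129).

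Cd36 passed the test for a slope only with the replicate block. The block called 4 of the 9 genes, which were Cd36, Cidec, Dgat2 and Fabp4, beside 14.2% of all genes. The slope of Cd36 was 0.35 (standard error 0.21, adjusted p = 0.275 in edgeR) without the block and 0.36 (standard error 0.08, adjusted p = 0.0113) with it. Leaving out 1 library with no block gave slopes of Cd36 from 0.07, without DMSO replicate 5, to 0.50, without DMSO replicate 3. A straight line gave 4.27 CPM of Cd36 per 1000 CPM of Alb over the 10 libraries and 0.538 without DMSO replicate 5. Slopes were 0.38 for Adipoq (standard error 0.39), 0.10 for Lpl (standard error 0.08), 0.05 for Plin2 (standard error 0.05), 0.01 for Plin1 (standard error 0.33) and -0.03 for Plin4 (standard error 0.22). With errors of 0.22 or more, the slopes of Adipoq, Plin1 and Plin4 were known only roughly without the block. With the block they were -0.18 (standard error 0.12), -0.27 (standard error 0.09) and -0.30 (standard error 0.09). None of these was called, at an adjusted p of 0.335, 0.0706 and 0.0506 in edgeR. Without DMSO replicate 5 and with no block the slope was -0.07 for Lpl and -0.19 for Plin1. Pearson's r with Alb was 0.33 for Adipoq, 0.44 for Cd36, 0.38 for Lpl, 0.07 for Plin1, 0.55 for Plin2 and 0.01 for Plin4, with permutation p from 0.0907 for Plin2 to 0.985 for Plin4 (n = 10). Spearman's rho lay between -0.20 for Plin1 and 0.67 for Plin2, of which only that of Plin2 had a permutation p under 0.05, at 0.0392. Without DMSO replicates 5 and 1, r of these 6 genes lay between 0.11 for Plin1 and 0.50 for Plin2 (permutation p = 0.201 for Plin2, n = 8). In all, 9 such relations were computed, and no p of a correlation was adjusted.

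**Figure D3:**
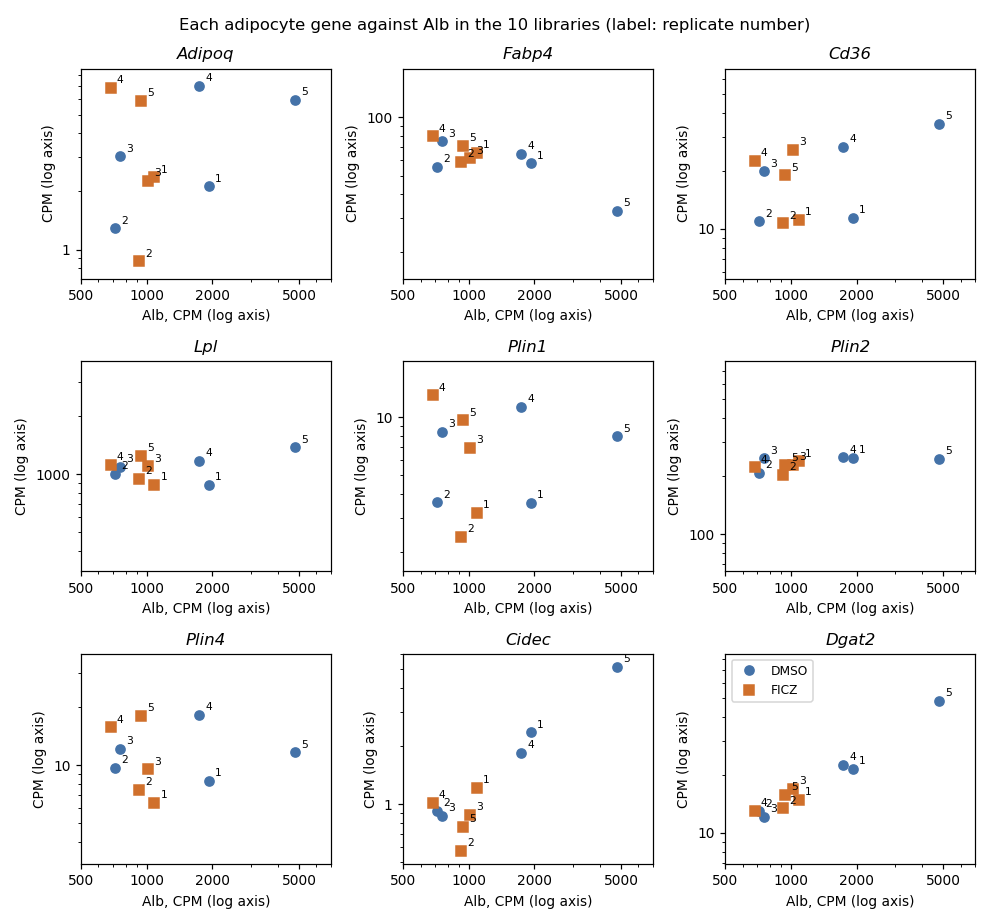
CPM of each gene against CPM of Alb in the 10 libraries, both on log axes, with DMSO as circles, FICZ as squares and the replicate number beside each point. Cidec and Dgat2 climb with Alb up to DMSO replicate 5 at 4782 CPM of Alb, and Adipoq and Plin1 are high in all 4 libraries numbered 4 or 5, whether Alb was at 682 or 4782 CPM.

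Adipoq and Plin1 differed between the replicate numbers, in DMSO and FICZ alike. This question was added after the values were seen. Adipoq (chromosome 16, 23146536 to 23158028, plus strand) had 2.12, 1.29, 3.05, 7.05 and 5.97 CPM in DMSO replicates 1 to 5 and 2.37, 0.870, 2.27, 6.89 and 5.89 CPM in FICZ. Both libraries numbered 4 and both numbered 5 lay above the other 6. At number 4 the level of Adipoq was nearly the same in the pair, 7.05 and 6.89 CPM, while Alb was at 1740 and 682 CPM. Plin1 (chromosome 7, 79720218 to 79732903, minus strand) had 3.62, 3.64, 8.43, 11.3 and 7.98 CPM in DMSO and 3.21, 2.40, 6.96, 13.0 and 9.66 CPM in FICZ. All 4 libraries numbered 1 or 2 were below the other 6. The mean of the pair ranged 6.47-fold over the numbers for Adipoq and 4.03-fold for Plin1.

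With replicate number as a factor beside treatment, edgeR called 2 of the 9 genes, beside 257 genes (1.8%) over all. These were Adipoq (adjusted p = 0.0183) and Plin1 (adjusted p = 0.0311). With Alb also in the model 5 of the 9 were called, which were Adipoq, Plin1, Cd36, Lpl and Plin4, beside 12.5% of all genes. DESeq2's likelihood ratio test, with no Alb in the model, called the same 5, beside 1492 of the 13309 genes it tested. These calls were lost when a number had 1 library in place of a pair, except at number 5. Without any 1 of the 8 libraries numbered 1 to 4, edgeR called 0 genes over all, although 1712 to 2266 genes had an unadjusted p at or under 0.05, beside 2798 with all libraries. Without DMSO replicate 5 it called 792 of the 14300 genes tested, with 5 of the 9 genes among them. Leaving out FICZ replicate 5 gave 3196 of 14348, with 7 of the 9 among them.

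Plin4 and Lpl were also lowest at numbers 1 and 2. Plin4 (chromosome 17, 56100591 to 56109803, minus strand) had 8.29, 9.68, 12.2, 18.2 and 11.7 CPM in DMSO and 6.39, 7.47, 9.51, 15.7 and 18.0 CPM in FICZ. The means of the pair were 7.34, 8.58, 10.8, 17.0 and 14.8 CPM for Plin4. For Lpl (chromosome 8, 68880491 to 68907448, plus strand) they were 883, 977, 1097, 1147 and 1316 CPM, and for Cd36 (chromosome 5, 17781690 to 17888801, minus strand) 11.3, 10.8, 22.8, 24.6 and 27.0 CPM. The spread over numbers was thus wide for Adipoq and Plin1, and 1.49-fold for Lpl. What a number stands for is not given in the sources used here, and a batch of cells or of libraries cannot be told apart from it.

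The genes whose log2 CPM was most like that of each gene over the 10 libraries differed between these groups. For Cidec they were Swsap1, Hsd3b5 and Nr1i3, all with a Pearson's r of 0.97, of which Hsd3b5 is a steroid enzyme and Nr1i3 a nuclear receptor, both known from liver. For Dgat2 they were Cdo1, Cyp2c70 and Kmo, all at 0.99, which are enzymes of cysteine, bile acid and kynurenine metabolism. For Adipoq they were Strip2, Igfbp4 and Cryzl2 (r from 0.95 to 0.98), and Igfbp4 encodes an IGF binding protein. Plin1 was most like Tenm4, Apcdd1 and Cxcl14 (0.92 to 0.96), and Plin4 most like Plxnd1, Csgalnact1 and Astn2 (0.96 to 0.97). For Cd36 the 3 genes were Gcnt1, Plod2 and Ccn4 (0.95 to 0.97), for Lpl Pde2a, Kcnt2 and C430042M11Rik (0.96 to 0.98) and for Plin2 Dusp15, Gdf15 and Hoxa11os (0.90 to 0.91). Fabp4 was most like Vit, Ccdc92 and Elf2 (0.94 to 0.96), and without DMSO replicate 5 those values were 0.73 to 0.80. These likenesses are the highest of 14250 for each gene, share their 10 libraries and were not tested.

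Other genes of the adipocyte programme were read from 6 lists. None of their 56 genes tested passed the test for FICZ in edgeR or DESeq2, and none did with the block. At an unadjusted p of 0.05 or less in edgeR were 3 of 10 other lipid droplet genes, 1 of 9 of lipolysis, 1 of 10 of fatty acid uptake, 2 of 10 of triglyceride synthesis, 2 of 9 other adipokines and 0 of 8 transcription factors. That is 9 of 56, beside 4.82% of all genes. The medians of the log2 fold changes were -0.13, -0.14, -0.12, -0.17, -0.06 and -0.08 in the same order, -0.09 over the 9 genes and 0.01 over all genes. With Alb as a covariate they were -0.02, 0.05, -0.01, -0.02, -0.07 and -0.05, and 0.02 for the 9 genes. The block alone gave -0.12, -0.13, -0.10, -0.16, -0.06 and -0.08, and -0.14 for the 9 genes. Block and Alb together gave -0.03, -0.12, -0.04, -0.04, -0.09 and -0.05, and -0.08 for the 9 genes. All of the medians but that of the other adipokines were nearer to 0 with Alb, with or without the block. With the block that of lipolysis moved little.

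The genes of these lists with the smallest unadjusted p for FICZ were mostly lower with it, and every adjusted p was 0.999 in edgeR. Cidea, a relative of Cidec known from brown fat, had 0.761, 0.301, 0.366, 0.783 and 2.13 CPM in DMSO replicates 1 to 5 and 0.207 to 0.403 CPM in FICZ. Its groups overlapped, and its log2 fold change was -1.58 (standard error 0.51), and -0.91 without DMSO replicate 5. Cideb was at -1.15 on the log2 scale, and at -0.42 without that library. Among lipolysis genes Mgll was at -0.66 and Aqp7, a glycerol channel, at -1.11, and these were -0.43 and -0.41 without DMSO replicate 5. Gpihbp1, the endothelial anchor of LPL, was at -1.41 (standard error 0.67), and at -0.79 without it. Fabp5, a fatty acid binding protein of many cell types, was the one gene named here that was higher with FICZ, at 0.39 (standard error 0.17), and it was at 0.25 without DMSO replicate 5. Pck1 and Gpd1 were at -1.12 and -1.02, and at -0.51 and -0.48 without that library. Of the adipokines, Cfd, which encodes adipsin, was at -0.98 and Rbp4 at -1.05, and these were -0.71 and -0.47 without it. The transcription factor genes Cebpa and Klf15 were at -0.14 and -0.35, and at -0.14 and -0.07 without DMSO replicate 5.

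Slopes on Alb passed the test for some genes of 5 lists, 17 of 56 in all, beside 12.9% of all genes, and positive slopes alone passed for 8.84% of all genes. Among other lipid droplet genes 5 of 10 had a positive slope that passed, among them Plin5 at 1.25 (standard error 0.15), which coats droplets of oxidative cells, and Cideb at 0.99 (standard error 0.09), the hepatocyte relative of Cidec. Triglyceride synthesis had 3 of 10, with Pck1 at 0.99 and Gpd1 at 0.92, which both supply glycerol 3-phosphate. In fatty acid uptake 3 of 10 passed, with Acsl1, an acyl-CoA synthetase, at 0.51 and Gpihbp1 at 0.97. Of lipolysis 1 of 9 passed, Mgll, a monoglyceride lipase, at 0.43, whereas Pnpla2, which encodes the first lipase of the droplet, was at 0.19 (adjusted p = 0.0579 in edgeR). Other adipokines had 4 of 9 with a positive slope, with Rbp4, a retinol carrier made in liver and fat, at 0.90 and Lcn2, a lipocalin, at 0.84, and 1 of 9 with a negative slope. Of the 8 transcription factors 0 passed in edgeR, with Klf15 at 0.44 and Cebpd at -0.34 (adjusted p = 0.0874 and 0.0674). Pparg lay between 46.7 and 59.4 CPM in all libraries. Without DMSO replicate 5, 4 genes of the lists passed in place of 17, beside 396 of the 14299 genes tested in that fit. The 4 were Cideb, Pck1, Gpd1 and Rbp4. Of the genes named here Plin5 (0.88, adjusted p = 0.223 in edgeR), Mgll (0.41, 0.782), Acsl1 (0.39, 0.0621), Gpihbp1 (0.99, 0.999) and Lcn2 (0.54, 0.670) did not pass without it. With the block 12 genes of the lists passed, beside 14.2% of all genes. Bscl2, Lmf1, Gpihbp1, Cfd, Nrg4 and Apln no longer passed, with an adjusted p from 0.0727 for Cfd to 0.175 for Apln in edgeR, and Fabp5 passed with a slope of -0.37. The part that liver RNA in the libraries plays in these slopes was not tested.

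**Figure D4:**
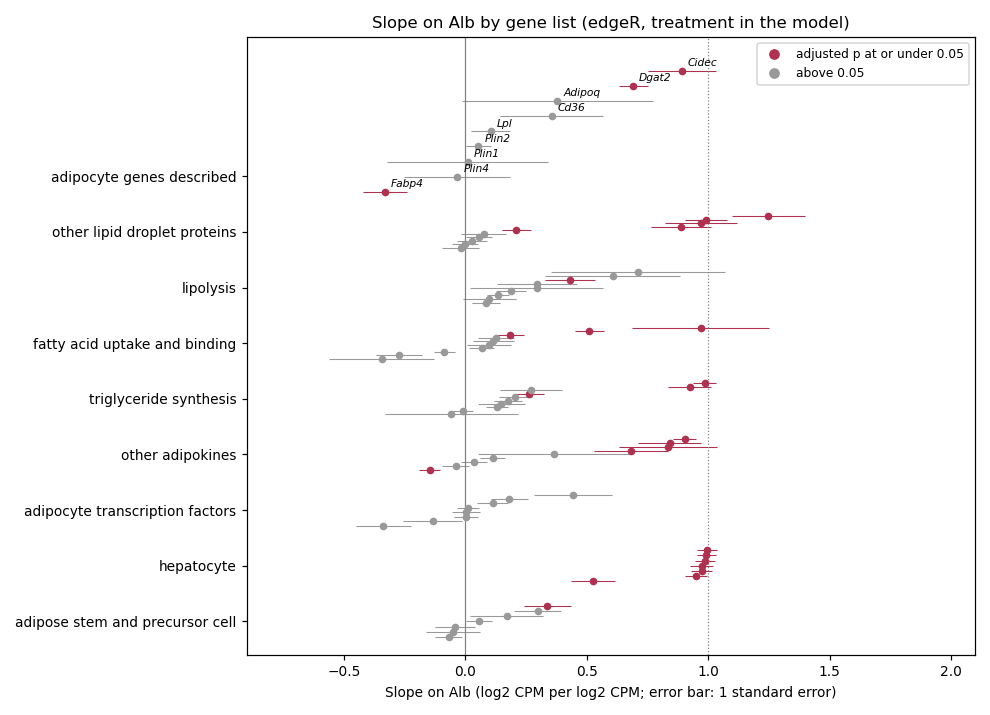
Slope of log2 CPM on log2 CPM of Alb in edgeR with treatment in the model, for the 9 adipocyte genes, the 6 lists of other adipocyte genes, the hepatocyte markers other than Alb and the ASPC markers, with error bars of 1 standard error and an adjusted p at or under 0.05 in red. The dotted line marks a slope of 1, near which Cidec (0.89) and most hepatocyte markers lie, and 1 ASPC marker, Dcn, passed at 0.34.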

How the data were processed

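RNA of 10 libraries of cultured mouse ASPCs was sequenced. The authors aligned reads with STAR 2.7.7 to mm10, per the labels, and deposited the raw count of each gene, by symbol and not normalized. The counting program, the annotation, the strand setting and the treatment of reads with several alignments are not given in the sources used here. Every column was matched to a library by its name. The table held 25229 rows, of which 5934 had no count, and 2 symbols occurred more than once, in 8 rows.

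Genes were tested on these counts with edgeR 4.0.16 (R 4.3.3) by the quasi-likelihood test with robust dispersions, TMM normalization and its filter on low expression, after which 14251 genes remained. Benjamini-Hochberg adjustment covered every gene tested, and 0.05 was the threshold. The slope was tested with treatment and log2 CPM of Alb in the model. Log2 CPM used a prior count of 2. Single genes were compared by an exact permutation test over 252 arrangements, and correlations with Alb by 100000 resamples. The alternatives were other normalizations, no filter, DESeq2 1.42.0, the replicate block, Alb as a covariate, 7 other hepatocyte markers in place of Alb, a prior count of 0.5 and leaving out each library. The fits were also run on simulated data, whose outcome is not given here and is not used as support.

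Libraries held 38328611 to 50210111 counts. Pairs of libraries of 1 group differed by more than sampling noise, the chi-square divided by its degrees of freedom being 16.4 to 285 over 20 pairs. Pairing by number was checked by the correlation of deviations from the group means, which was 0.27, 0.28, 0.15, 0.32 and 0.24 for numbers 1 to 5 and -0.06 on average between unlike numbers. Deviations within a group cancel out, so the value between unlike numbers largely follows from that of like numbers and is no separate evidence. The correlation of like numbers was over 0.1 in each pair. The numbers were therefore taken as pairs on the evidence of the data, since no label gives a shared culture or day. Variation between libraries beyond counting noise, which may be technical, had a common coefficient of 0.209 in edgeR without the block and 0.170 with it.

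The 10 genes and all lists were chosen with earlier results of these data known. Beside them the text names Alb, the AHR targets, cell type markers, the 3 genes most like each gene, and in each other list the 2 genes with the smallest unadjusted p in either test. Pparg was named after its values were seen, and so were Bscl2, Lmf1, Nrg4 and Apln, which lost their calls with the block. The test of replicate number was also added after the values were seen. Gene positions, exon lengths and the 50-base words shared between genes come from GENCODE M21 (GRCm38), in which 96.5% of the symbols were found. Ldaf1 is read under its older symbol Tmem159. Other experiments of the study were not analysed here.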

Additional observations from a re-analysis of the deposited data

Results flagged for a closer look

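In 2 of 18 groups of 5 libraries 1 library stood far from the others, where chance alone marks about 1 group in 20. Plin2 in DMSO replicate 2 was low, at 208 CPM with the nearest of the other DMSO libraries at 245 CPM, a gap of 0.884 of the whole range of the group. FICZ replicate 2 was also the lowest library of its group, at 202 CPM. Dgat2 in DMSO replicate 5 was high, at 48.3 CPM with the nearest at 22.5 CPM, a gap of 0.715 of the range, and that library also held the most Alb, at 4782 CPM. The limit for 5 libraries is 0.71.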

How the results depend on the processing

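For FICZ against DMSO, 0 of the 9 genes and 0 of the other adipocyte genes were called under every alternative run. The number of genes called over all, 3, was 16 with DESeq2, 8 with the replicate block, 26 with DESeq2 and the block, 16 with Alb and the block, 8 with the block and without both libraries numbered 5, and 1 to 4 without 1 library. The sign of uncalled log2 fold changes was not stable. That of Plin1, 0.01, was -0.011 with library size only, -0.10 with the replicate block and with DESeq2 and the block, -0.30 with Alb and the block and -0.20 with the block and without number 5. With Alb as a covariate Adipoq was at 0.31, Cd36 at 0.11, Lpl at 0.023, Dgat2 at 0.030, Gpd1 at 0.013 and Klf15 at 0.079. With Alb and the block Fabp4 was at -0.018, Cd36 at 0.10 and Dgat2 at 0.014, and with the block and without number 5 Cd36 was at 0.0089. Leaving out 1 library gave -0.45 to 0.23 for Adipoq, -0.40 to 0.047 for Cd36, -0.15 to 0.031 for Lpl, -0.33 to 0.25 for Plin1 and -0.31 to 0.13 for Plin4.

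The slope on Alb was called for 1844 genes, for 3112 with DESeq2 and for 396 to 3330 without 1 library, where 1 to 3 of the 9 genes and 4 to 25 other adipocyte genes (17 with all libraries) were called. The lowest counts were without DMSO replicate 5. Without it all 396 calls were positive. Adipoq was at -0.18 and Plin1 at -0.27 with the block, Plin1 at -0.0056 without the filter, and Plin4 at 0.0085 with library size only and 0.0072 with the other hepatocyte markers. Leaving out 1 library gave -0.22 to 0.14 for Plin1, -0.069 to 0.13 for Lpl and -0.15 to 0.020 for Plin4. Without the libraries farthest from the median of Alb 1 of 3 correlations with Alb had a p at or under 0.05. Replicate number was called for 257 genes, 2 of the 9 and 4 other adipocyte genes. DESeq2 called 1492, 5 and 7, Alb in the model gave 1786, 5 and 8, and leaving out 1 library gave 0 to 3196, 0 to 7 and 0 to 19. The cause of these shifts was not tested. Of 927 values for single genes under alternatives, 827 kept their direction and side of the threshold, 33 lost the call, 26 gained one and 41 changed sign.

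The libraries share 1 time point and dose, and Lep was under the detection limit at this depth. The counts do not tell transcripts of liver from those of the cultured cells.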
